A study of Mus musculus with 20 samples.

Results

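Of the 19937 genes that the arrays measured with a transcript cluster annotated to exactly 1 gene symbol, 5 are described here: the myosin light chains Myl2, Myl3, Myl4 and Myl7, and sarcolipin (Sln). They were chosen by name, as light chains and a calcium pump regulator that mark heart chambers, and each had 1 such cluster. Myl2 and Myl3 were taken as the 2 ventricular isoforms, and Myl4, Myl7 and Sln as the 3 atrial or foetal genes. RNA came from the left ventricle of male C57BL/6 mice, labelled as 2 months old, and each mouse had 1 Affymetrix Mouse Gene 1.0 ST array. Doxorubicin (DOXO) is an anthracycline that injures heart muscle, and the study asked whether the vitamin folic acid (FA) alters this injury. The 4 sham mice received saline and a placebo diet, the 4 FA-sham mice saline and FA at 10 mg/day, the 6 DOXO mice 1 intraperitoneal injection of DOXO at 20 mg/kg with the placebo diet, and the 6 FA-DOXO mice the same injection with FA. The FA diet began 7 days ahead of the injection and lasted until the hearts were collected on day 10. DOXO and FA-DOXO mice were therefore survivors of the injection up to that day. The study reports lower mortality after DOXO with FA, so survivors with and without FA may not have been selected alike.

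A myosin motor carries an essential and a regulatory light chain on the lever arm of each heavy chain, and phosphorylation of the regulatory chain tunes the force of contraction. Working ventricle uses Myl2 as the regulatory and Myl3 as the essential chain, whereas atria use Myl7 and Myl4. Myl4 is also made in foetal ventricle, and its return in adult ventricle is known from overloaded and failing hearts. Sarcolipin is a small membrane protein of atrial and skeletal muscle that inhibits the calcium pump of the sarcoplasmic reticulum. Phospholamban has that role in the ventricle.

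The promoters of 1 ventricular and 1 atrial light chain are shown because they share an element. The 150 bases before the start of Myl3 (GRCm38.p6, chr9:110763528-110763677, plus strand) and of Myl7 (chr11:5898783-5898932, minus strand) are given 5′ to 3′ as listed by RefSeq. Capitals mark a CArG box, the element bound by serum response factor in muscle genes.
Myl3: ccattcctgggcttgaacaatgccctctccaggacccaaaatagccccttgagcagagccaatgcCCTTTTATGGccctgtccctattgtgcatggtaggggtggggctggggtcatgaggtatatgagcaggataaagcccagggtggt
Myl7: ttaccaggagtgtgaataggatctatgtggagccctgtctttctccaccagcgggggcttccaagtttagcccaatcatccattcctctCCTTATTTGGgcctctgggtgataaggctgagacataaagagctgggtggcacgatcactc
The box began 85 bases before the start in Myl3 and 61 bases before it in Myl7. Searched on both strands over the 250 bases before each start, 1.47% of 32851 listed promoters held a CArG box. The GATA factor element GATAAG was found in 6.55% of promoters, among them Myl7, 41 bases before its start. An E box (CANNTG) was found in 66.2% of promoters, among them those of Myl2, Myl3 and Myl7, and a MEF2 site, found in 2.92%, was in none of the listed windows of the 4 light chains. Myl2 has 2 listed starts and Myl4 has 1, and their windows held no CArG box. These matches describe letters and no binding.

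The arrays differed in spread, and this touched nearly every value below. The SD of all log2 signals of an array was 0.863 to 1.03 on 12 arrays, called narrow here, and 1.14 or more on the other 8, called wide. This definition uses all clusters, so clusters with signals far from the array median tend to differ between wide and narrow arrays. The share of clusters that separate these arrays as a member does was not counted. Wide arrays made up 3 of 4 in sham, 1 of 4 in FA-sham, 2 of 6 in DOXO and 2 of 6 in FA-DOXO mice. Each member is therefore also given with the array SD as a covariate in the fit. The part of the array spread in the group differences was not tested. The tissue carried its labelled markers: the 10 cardiomyocyte markers (contractile and calcium handling genes such as Tnnt2 and Myh6) had a mean log2 signal per array of 8.90 to 12.80 in sham mice. That range was 7.98 to 11.02 in FA-sham, 8.44 to 12.60 in DOXO and 8.10 to 11.83 in FA-DOXO mice. No cardiomyocyte marker passed the unadjusted threshold in any comparison. These markers were lower on narrow arrays, with mean log2 signals of 10.50 on narrow and 13.57 on wide arrays for Tnnt2, and 7.46 and 10.91 for Myh6. Fewer cardiomyocytes, less RNA per cardiomyocyte and the spread of the arrays cannot be told apart in these pieces of ventricle.

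Myl2, the ventricular regulatory chain, had log2 signals of 12.40, 12.82, 12.82 and 10.53 in the 4 sham mice. In FA-sham mice they were 8.05, 11.13, 8.55 and 12.39. DOXO mice ranged from 8.27 to 12.94 around a median of 11.55, and FA-DOXO mice from 8.03 to 12.60 around 10.88. The groups overlapped, and the 8 highest values of Myl2 came from the 8 wide arrays, 12.39 to 12.94, whereas the narrow arrays reached from 8.03 to 11.84. The mean was 1.03 lower on the log2 scale in DOXO versus sham mice (log2 difference -1.03, SE 1.08, limma adjusted p = 0.668). A two-sided exact permutation test gave p = 0.343. With the array SD as a covariate the difference was -0.13 (SE 0.70).

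Myl3, the ventricular essential chain, followed the same order of arrays. Sham mice had log2 signals of 13.40, 13.25, 13.11 and 11.22, and FA-sham mice 8.10, 11.31, 9.21 and 12.61. DOXO mice lay between 10.06 and 12.98 with a median of 11.67, and FA-DOXO mice between 7.97 and 12.96 with a median of 11.35. In 3 of 6 DOXO mice Myl3 was below every sham mouse, and the groups overlapped. The log2 difference in DOXO versus sham mice was -1.10 (SE 0.94, limma adjusted p = 0.649, exact permutation p = 0.152), and -0.37 (SE 0.66) with the array SD as a covariate. Both ventricular chains stood near the top of every array, with 95.5% or more of all clusters below Myl2 and 95.2% or more below Myl3. Such ranks mix abundance with differences between probes and give no relation between the 2 genes.

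Myl4, the atrial and foetal essential chain, did not follow the spread of the arrays. Its mean log2 signal was 7.66 on wide arrays (SD 0.33, n = 8) and 7.75 on narrow arrays (SD 0.78, n = 12). A relation to the array SD within the narrow arrays alone was not tested. Over the 20 arrays the r of Myl4 with the array SD was 0.02. The r was 0.83 for Myl2, 0.80 for Myl3, -0.74 for Myl7 and -0.94 for Sln. Sham mice had Myl4 signals of 7.49, 7.64, 7.37 and 7.03. FA-sham mice had 8.53, 8.03, 7.06 and 8.21, so that 3 of 4 were above every sham mouse. DOXO mice ranged from 7.28 to 8.42 with a median of 7.56, and 3 of 6 exceeded every sham mouse. FA-DOXO mice ranged from 6.98 to 8.98 with a median of 7.41, and contained both the lowest and the highest values of the series. The log2 difference in DOXO versus sham mice was 0.31 (SE 0.39, limma adjusted p = 0.702, exact permutation p = 0.276), and the groups overlapped. It was 0.39 (SE 0.40) with the array SD as a covariate. Of the variance of Myl4, 9.48% lay between groups, 3.36% went with the array SD after the groups, and 87.2% was left among mice of a group.

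**Figure D1:**
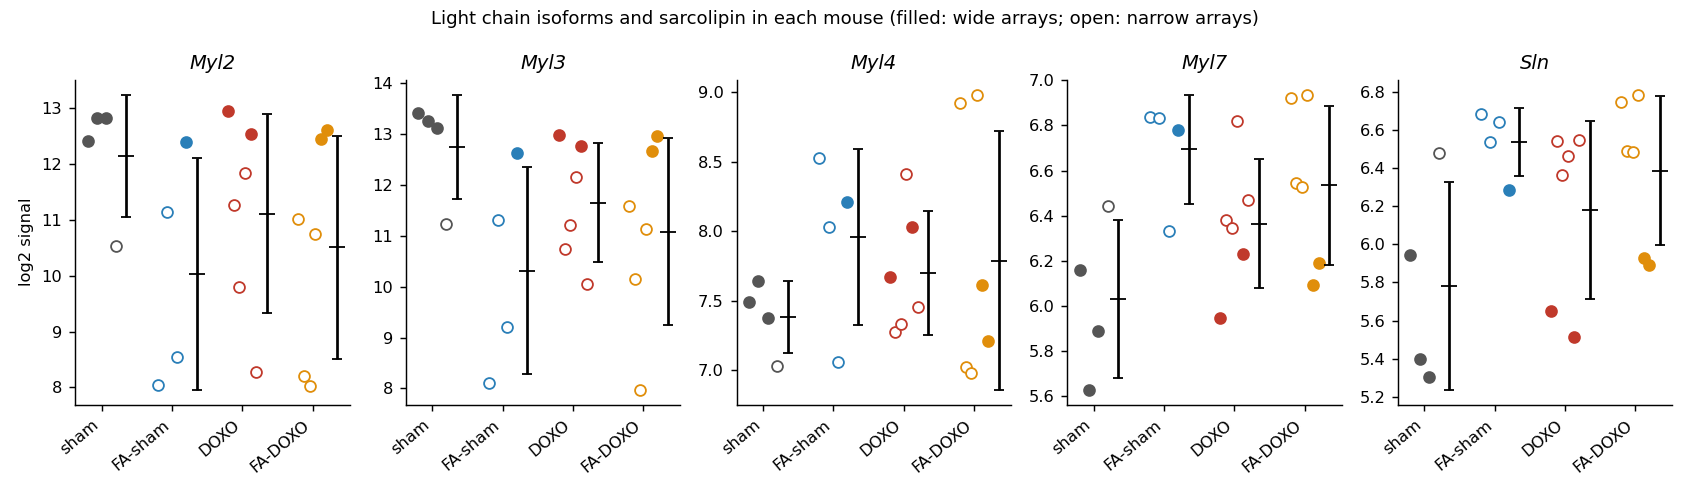
Log2 signal of each member (y axes, scaled per gene) in each mouse of the 4 groups (x axes). Filled points are wide arrays, open points narrow arrays, and bars show mean and SD. Myl2 and Myl3 are highest on wide arrays, Myl7 and Sln mostly lowest there, and Myl4 reaches 8.92 and 8.98 in 2 FA-DOXO mice.

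Myl7, the atrial regulatory chain, had log2 signals of 6.16, 5.63, 5.89 and 6.44 in sham mice and of 6.84, 6.83, 6.33 and 6.78 in FA-sham mice. DOXO mice ranged from 5.95 to 6.82 with a median of 6.36, and FA-DOXO mice from 6.09 to 6.93 with a median of 6.54. The signal lay above the median of its own array in 6 of 20 mice, 0 of them sham mice. The log2 difference in DOXO versus sham mice was 0.34 (SE 0.20, limma adjusted p = 0.647, exact permutation p = 0.133), and 2 DOXO mice exceeded all sham mice. It was 0.21 (SE 0.16) with the array SD as a covariate.

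Sarcolipin gave the lowest ranks of the 5, with 10.7% to 62.5% of the clusters of an array below it, so that whether it was expressed at all cannot be read from these signals. Sham mice had 5.94, 5.40, 5.30 and 6.48, and FA-sham mice 6.68, 6.54, 6.64 and 6.28. DOXO mice ranged from 5.52 to 6.55 around a median of 6.41, and FA-DOXO mice from 5.89 to 6.79 around 6.49. Every wide array was below every narrow array, with 5.30 to 6.28 against 6.36 to 6.79. The log2 difference in DOXO versus sham mice was 0.40 (SE 0.26, limma adjusted p = 0.647, exact permutation p = 0.267). With the array SD as a covariate it was 0.15 (SE 0.11). Array SD took 58.5% of the variance of Sln after the groups, compared with 51.7% for Myl2, 40.5% for Myl3 and 25.2% for Myl7.

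Against sham mice, none of the 5 genes passed the unadjusted threshold of 0.01 in DOXO mice, where 1.05% of 34760 clusters passed it. At an adjusted p of 0.05 none of them passed either, against 0.00288% of clusters. Point estimates ran in opposite directions, lower for both ventricular chains and higher for the 3 atrial or foetal genes, and each 95% confidence interval included 0. The interval for Myl2 reached from -3.30 to 1.24 and that for Myl4 from -0.51 to 1.14, so that differences of that size in either direction lay within them. Leaving out 1 mouse moved Myl2 to -0.47 (without DOXO mouse 6) or -1.57 (without sham mouse 4), Myl4 to 0.17 (without DOXO mouse 4), Myl7 to 0.20 (without sham mouse 2) and Sln to 0.24 (without sham mouse 3) or 0.63 (without sham mouse 4), and made no call among the 5 genes.

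The comparison of FA-DOXO with DOXO mice asks whether the genes differed with FA among mice that survived the injection to day 10. In FA-DOXO versus DOXO mice the log2 differences were -0.60 (SE 0.97) for Myl2, -0.57 (SE 0.84) for Myl3, 0.09 (SE 0.35) for Myl4, 0.17 (SE 0.18) for Myl7 and 0.21 (SE 0.23) for Sln. None passed at 0.01, where 0.158% of clusters did. At an adjusted p of 0.05 limma called 0% of clusters, with 455 at an unadjusted p of 0.05. Exact permutation p-values ran from 0.372 for Myl7 to 0.823 for Myl4. In FA-DOXO versus FA-sham mice the signs turned, with 0.48 (SE 1.08) for Myl2, 0.77 (SE 0.94) for Myl3, -0.17 (SE 0.39) for Myl4, -0.16 (SE 0.20) for Myl7 and -0.15 (SE 0.26) for Sln. There, 0.268% of clusters passed at 0.01 and 0.00288% after adjustment, and none of the 5 genes was among either. With the array SD as a covariate Myl2 was at -0.04 (SE 0.68) in this comparison, so its sign depended on the fit.

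The single call among the 5 genes came from mice that received no DOXO. Myl7 was 0.66 higher on the log2 scale in FA-sham versus sham mice (SE 0.22, unadjusted p = 0.00686, limma adjusted p = 0.156), a threshold that 4.35% of all clusters also passed. In 3 of 4 FA-sham mice Myl7 was above every sham mouse, and the exact permutation p was 0.0571, where 4 mice against 4 can reach 0.0286 at the lowest. Sln was 0.76 higher (SE 0.29, unadjusted p = 0.0165) and Myl4 0.57 higher (SE 0.43, unadjusted p = 0.201). The log2 difference of Myl2 was -2.11 (SE 1.19, unadjusted p = 0.0915) and that of Myl3 -2.44 (SE 1.03, unadjusted p = 0.0288). The cardiomyocyte markers moved in the same direction, with 0 of 10 higher and a median of -2.27, against 0.19 over all clusters. With the array SD as a covariate their median was -0.01, against 0.07. After adjustment 0% of clusters were called by limma in this comparison over all mice (14815 clusters without sham mouse 4), with 10784 at an unadjusted p of 0.05. Sham held 3 of its arrays among the wide ones and FA-sham 1, and with the array SD as a covariate the 5 differences became -0.10 (SE 0.83) for Myl2, -0.81 (SE 0.79) for Myl3, 0.75 (SE 0.48) for Myl4, 0.38 (SE 0.19, unadjusted p = 0.0564) for Myl7 and 0.20 (SE 0.13) for Sln. The Myl7 call was also lost on leaving out sham mouse 2 (log2 difference 0.53, unadjusted p = 0.0312), sham mouse 3 (0.62, unadjusted p = 0.0199), FA-sham mouse 1 (0.62, unadjusted p = 0.0200), FA-sham mouse 2 (0.62, unadjusted p = 0.0199) or FA-sham mouse 4 (0.64, unadjusted p = 0.0174). Leaving out sham mouse 4, the narrow array of its group, had the opposite effect and ended the absence of adjusted calls. Without it limma called 14815 of 34760 clusters at an adjusted p of 0.05, so that a call was common among all clusters. Among them were 3 of the 5 genes, with log2 differences of 0.80 for Myl7 (adjusted p = 0.0283), 0.99 for Sln (adjusted p = 0.0284) and -2.94 for Myl3 (adjusted p = 0.0423). At the unadjusted threshold Myl7 and Sln passed without this mouse (unadjusted p = 0.00230 and unadjusted p = 0.00252), where 9776 of 34760 clusters passed. Without FA-sham mouse 4 Myl3 passed (-3.20, unadjusted p = 0.00627), where 2196 of 34760 clusters did. Exact permutation tests were made for the 5 genes in 4 comparisons, 20 in all, and their p-values are not adjusted.

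The interaction asks whether the DOXO difference depended on FA. It was 1.51 (SE 1.53) for Myl2, 1.87 (SE 1.33) for Myl3, -0.48 (SE 0.56) for Myl4, -0.50 (SE 0.28) for Myl7 and -0.55 (SE 0.37) for Sln. Myl7 had the smallest unadjusted p, 0.0960. None of the 5 passed at 0.01, where 0.463% of clusters did, and limma called 0% after adjustment, with 1803 clusters at an unadjusted p of 0.05. Each two-group comparison shares a group of mice with 2 of the other 3, so they are not independent of each other.

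**Figure D2:**
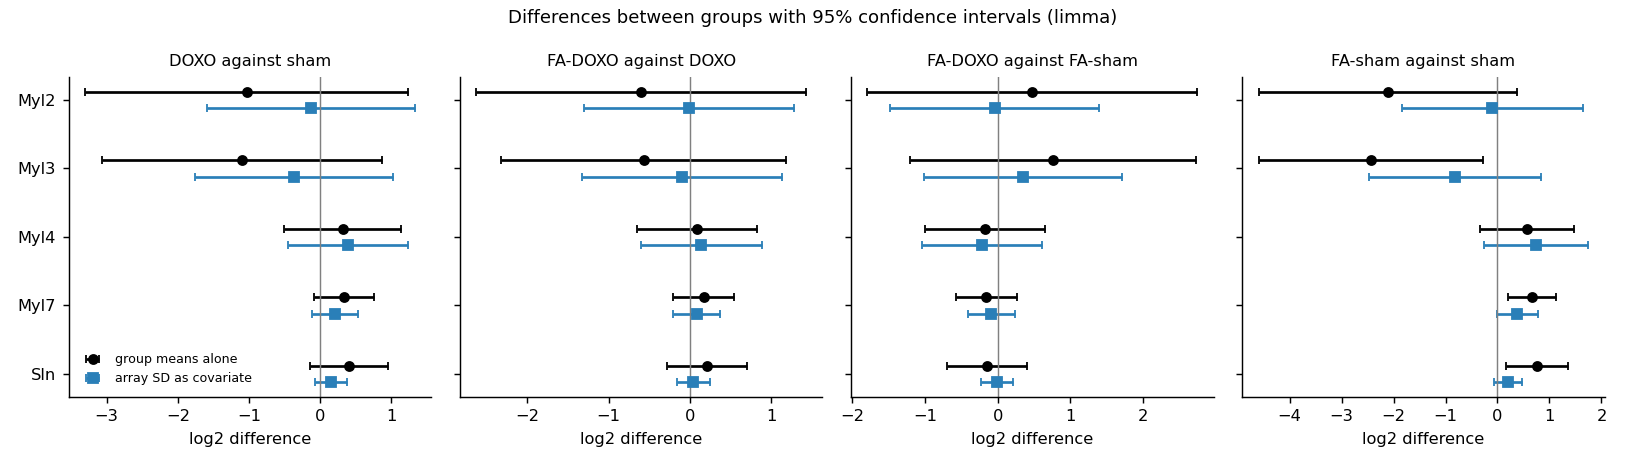
Log2 difference (x axes) of each member (y axis) in the 4 comparisons of 2 groups, with 95% confidence intervals from limma. Circles are group means alone and squares add the array SD as a covariate. In FA-sham versus sham mice Myl2 moves from -2.11 to -0.10, whereas Myl4 changes from 0.57 to 0.75.

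The balance of chamber isoforms was described per mouse as the mean log2 signal of Myl4, Myl7 and Sln minus that of Myl2 and Myl3. Its size depends on the probes, and differences between mice are what can be read. Sham mice were at -6.04 ± 1.23 (SD, n = 4) and FA-sham mice at -3.11 ± 2.06 (SD, n = 4). DOXO mice were at -4.63 ± 1.53 (SD, n = 6), and FA-DOXO mice at -3.89 ± 1.97 (SD, n = 6). Values closer to 0 can come from more atrial signal, less ventricular signal or both. The mean of Myl2 and Myl3 was 12.44 in sham, 10.17 in FA-sham, 11.38 in DOXO and 10.79 in FA-DOXO mice. That of Myl4, Myl7 and Sln was 6.40, 7.06, 6.75 and 6.90 in the same order. The balance had its lowest mean in sham mice. Sham mouse 4, on the single narrow array of its group, was at -4.22 against -6.81 to -6.37 in the other sham mice. By array, the balance was -6.29 ± 0.46 (SD, n = 8) on wide and -3.12 ± 1.27 (SD, n = 12) on narrow arrays, and the 2 sets did not overlap (-6.81 to -5.41 against -4.76 to -0.73). The difference of DOXO versus sham mice, 1.42, was 0.36 among wide arrays, 0.43 among narrow arrays, 0.50 with the array SD as a covariate and 0.21 with the kind of array as a block. For FA-sham versus sham mice it was 2.94, against 1.24 among wide arrays, 1.88 among narrow arrays, 0.90 with the covariate and 1.49 with the block. Wide FA-sham and narrow sham arrays numbered 1 each.

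**Figure D3:**
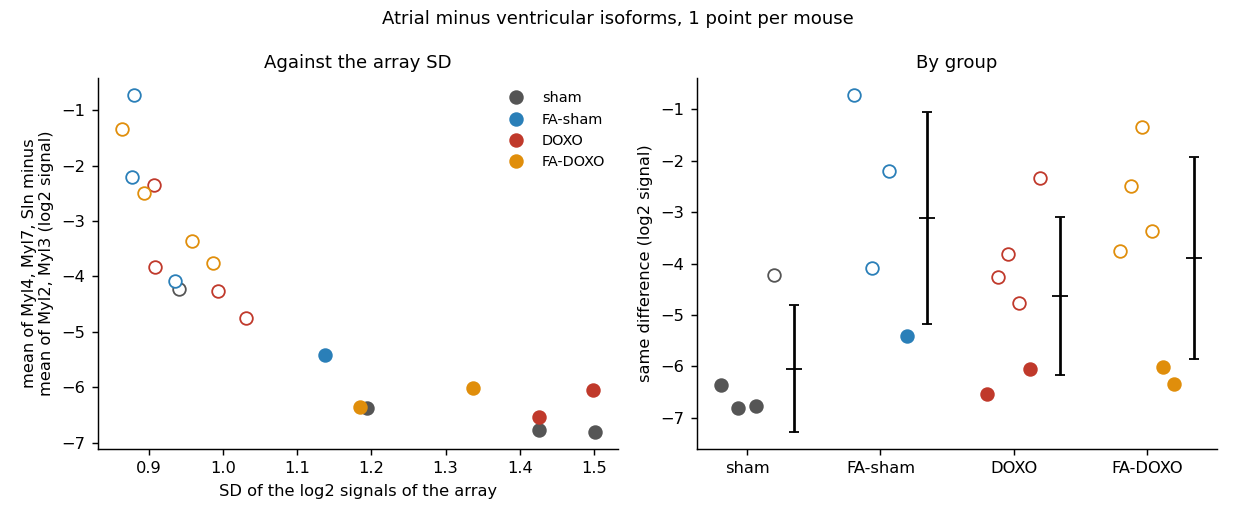
Mean of Myl4, Myl7 and Sln minus mean of Myl2 and Myl3 (y axes, log2 signal), plotted against the array SD (left) and by group with mean and SD (right). Filled points are wide arrays and open points narrow arrays. The 8 wide arrays lie at -5.41 or lower and the 12 narrow arrays at -4.76 or higher.

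Among the atrial genes, Myl4 and Myl7 were the closest pair. After the group means and the array SD had been removed, Myl4 and Myl7 had an r of 0.84 over the 20 arrays, and each was the gene most like the other among the 19936 other genes. For Myl4 the next were Fgf17, a fibroblast growth factor (r = 0.78), and Sln (r = 0.72). Myl7 and Sln had an r of 0.62, at rank 115 among the genes most like Myl7. Besides Myl4, Myl7 was most like Mgmt, a DNA repair enzyme (r = 0.79), and the unnamed transcript 2900005J15Rik (r = 0.79). Sln was most like Fgf17 (r = 0.81), Gm15498 (r = 0.80) and the enamel protease Mmp20 (r = 0.79). Without removal of group means and array SD these r were 0.87, 0.94 and 0.97. Whether these genes were expressed in the ventricle was not tested. Within narrow arrays alone the log2 signals of Myl4 and Myl7 had an r of 0.91 (n = 12), and within wide arrays 0.57 (n = 8). The points of each correlation share the array, its spread and its hybridisation.

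The mice with high Myl4 came from 3 of the 4 groups. FA-DOXO mice 4 and 1 had 8.98 and 8.92, with the 2 highest Myl7 signals of the series, 6.93 and 6.92, and the 2 highest Sln signals, 6.79 and 6.74. FA-DOXO mice 2 and 3 had Myl4 at 7.02 and 6.98, Myl7 at 6.55 and 6.52, and Sln at 6.49 and 6.48. All 4 arrays were narrow, yet they differed in spread. The array SD was 0.958 and 0.987 for FA-DOXO mice 4 and 1, and 0.893 and 0.863 for mice 2 and 3. The part of this spread in their signals was not tested. FA-sham mouse 1 (Myl4 8.53, Myl7 6.84), DOXO mouse 4 (8.42 and 6.82), FA-sham mouse 4 (8.21 and 6.78) and FA-sham mouse 2 (8.03 and 6.83) came next. DOXO mouse 5, at 8.03 for Myl4, had Myl7 at 6.23 on a wide array. No sham mouse exceeded 7.64 for Myl4.

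**Figure D4:**
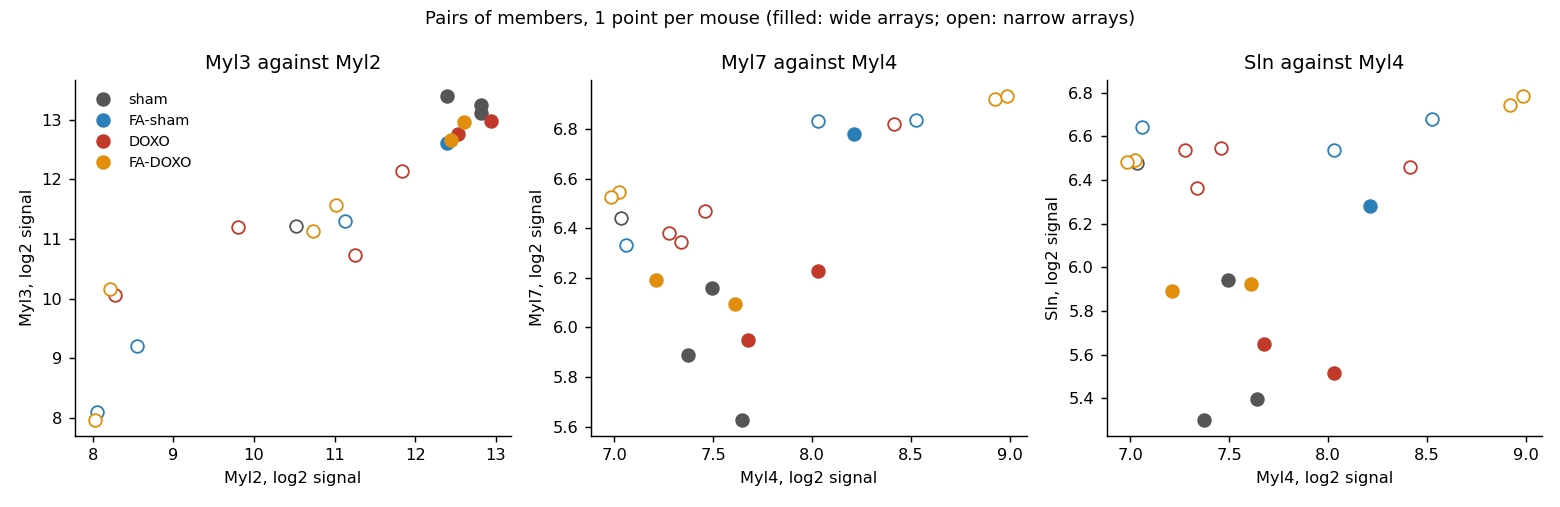
Log2 signals of 2 members against each other, 1 point per mouse, coloured by group; filled points are wide arrays and open points narrow arrays. Myl3 is higher where Myl2 is higher, and among narrow arrays Myl7 and Sln are highest where Myl4 is, in FA-DOXO mice 1 and 4 at the top right of the middle and right panels.

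Markers of atrial muscle gave values beside this pattern, and their part in it was not tested. Of 11 listed, 10 were measured, and 0 passed in any comparison at 0.01. In the fit that held the array SD, under which 1440 clusters passed in DOXO versus sham mice, Kcnj3, a potassium channel subunit of atria, passed with a log2 difference of -0.43 (unadjusted p = 0.00802). In the same fit Pam, an amidating enzyme of atrial secretory granules, passed as higher in FA-sham versus sham mice (log2 difference 0.90, unadjusted p = 0.00620). In that comparison 635 of 34760 clusters passed. The mean of the 10 per array was 6.82 to 7.42 in sham, 6.74 to 7.27 in FA-sham, 6.79 to 7.47 in DOXO and 6.74 to 7.48 in FA-DOXO mice. Bmp10, Hamp, Sbk3 and Nr2f1 were below the array median in all 20 mice. Nppa, Sbk2, Stard10, Kcnj3 and Pam were above it in all 20, and Dkk3 was above it in 13. Nppa, the atrial natriuretic peptide that stressed ventricle also makes, had an r of 0.45 with Myl4 on the same residuals, the highest of the 10. Hamp had 0.43, Dkk3 0.32, Sbk2 0.23 and Sbk3 0.0065. The r was negative for Nr2f1 (-0.03), Pam (-0.08), Stard10 (-0.09), Bmp10 (-0.13) and Kcnj3 (-0.22). Nppa was at 10.25 and 9.52 in FA-DOXO mice 1 and 4 and at 8.60 and 7.85 in FA-DOXO mice 2 and 3. Myl2 separated the same mice, with 11.02 and 10.74 against 8.21 and 8.03. The other FA-DOXO mice, 5 and 6, had the highest Nppa signals of the series, both at 11.53, with Myl4 at 7.61 and 7.21.

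The ventricular chains kept other company. On the same measure Myl2 was most like Myoz2, a Z-disc protein (r = 0.97), Bsg, a partner of lactate transporters (r = 0.97), and Atp5o, a subunit of ATP synthase (r = 0.97). Myl3 was most like Ndufs7, a subunit of respiratory complex I (r = 0.99), Tnni3, the cardiac inhibitory troponin (r = 0.98), and myoglobin, Mb (r = 0.98). Myl2 and Myl3 had an r of 0.85 with each other, which placed Myl3 at rank 188 among the genes most like Myl2. Between the ventricular chains and the atrial or foetal genes r was lower, from 0.26 for Myl3 and Sln to 0.47 for Myl2 and Myl7. Without removal of group means and array SD, the log2 signals of Sln had an r of -0.71 with Myl2 and -0.72 with Myl3. Those of Myl7 had -0.46 and -0.50, and those of Myl4 0.19 and 0.11.

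The light chains' partners were described from lists of related genes. In DOXO versus sham mice, where 1.05% of 34760 clusters passed at 0.01, 0 of the 3 cardiac myosin heavy chains did. Myh7, the slow heavy chain of foetal ventricle, was at 7.21 in sham and 9.40 in DOXO mice (log2 difference 2.19, SE 0.87, unadjusted p = 0.0211, limma adjusted p = 0.647). With the array SD as a covariate the Myh7 difference was 2.92 (limma unadjusted p = 4.42e-05), in a fit where 1440 of 34760 clusters passed 0.01. The covariate also moved Myh7 in FA-sham versus sham mice, from 0.00045 to 1.63 (limma unadjusted p = 0.0219). How far the DOXO value from this fit depends on the way the covariate is modelled was not tested. Without the covariate, Myh7 was also higher in FA-DOXO versus FA-sham mice (log2 difference 2.06, SE 0.87, limma unadjusted p = 0.0288, limma adjusted p = 0.983). Myh6, the adult heavy chain, was at 10.30 in sham and 8.86 in DOXO mice (log2 difference -1.44, SE 1.11). Among 8 other light chains 1 fell, Myl1, an essential chain of fast skeletal muscle (log2 difference -0.62, SE 0.19, unadjusted p = 0.00425, limma adjusted p = 0.647). The median of these 8 was -0.49, against 0.10 over all clusters, and -0.09 with the array SD in the fit, against 0.04. Myl1 itself still passed 0.01 in that fit (log2 difference -0.56, limma unadjusted p = 0.00636). Of 10 skeletal muscle markers, which include Myl1, that 1 fell and 0 rose, with a median of 0.24. With the array SD in the fit this median was 0.06, and Tnni2, a fast skeletal troponin, passed as higher (log2 difference 0.34, unadjusted p = 0.00876). Kinases and phosphatase subunits that act on the regulatory chain numbered 8, of which 1 fell. It was Mylk4, a kinase of the light chain kinase family, at 8.53 in sham and 6.87 in DOXO mice (log2 difference -1.67, SE 0.54, unadjusted p = 0.00653, limma adjusted p = 0.647). The median of these 8 kinases and phosphatase subunits was -0.27, and 0.14 with the array SD in the fit. Mylk4 itself still passed 0.01 in that fit (log2 difference -1.24, limma unadjusted p = 0.00389).

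The targets and relatives of sarcolipin were described in the same way. Of 7 listed calcium pumps and small regulators 5 were measured, and 0 passed in DOXO versus sham mice, with a median of 0.11. Atp2a2, the cardiac pump, was at 11.51 in sham and 10.40 in DOXO mice (log2 difference -1.11, SE 1.20), and phospholamban, Pln, at 12.84 and 11.81 (-1.03, SE 1.06). Both followed the ventricular chains, with -0.05 for Pln and 0.10 for Atp2a2 once the array SD was a covariate. In that fit Atp2a1, the pump of fast skeletal muscle, passed at 0.01 (log2 difference 0.22, unadjusted p = 0.00872), as did 1440 of 34760 clusters. Of 14 transcription factors that pattern the chambers 13 were measured and 0 passed, with a median of -0.18 that became 0.04 with the array SD in the fit. Hand2, a factor of the heart fields, passed with the array SD as a covariate (log2 difference 0.29, unadjusted p = 0.00562). The ventricular factor Irx4 was at 7.23 in sham and 6.76 in DOXO mice (-0.46, SE 0.35). In cardiomyocyte markers, 0 of 10 passed, with a median of -0.98. That median was -0.04 with the array SD in the fit, 0.11 on wide arrays alone and 0.35 on narrow arrays alone. Neither did any of the 3 ventricular markers pass, nor any of the 8 listed markers each for smooth muscle, endothelium and fibroblasts.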

How the data were processed

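The authors deposited 1 log2 signal per transcript cluster and array, made with R 2.14.2 per the submitters' processing notes. How they corrected background, normalized and summarized probes is not stated in the sources read, and the deposited arrays differ in spread, which enters each comparison. The platform annotation gave 1 gene symbol to 21640 of 34760 clusters, several to 1321 and was without an entry for 11799. Starting from these log2 signals, limma 3.58.1 in R 4.3.3 fitted 1 mean per group over all 20 arrays, without filter or covariate. Thresholds were an unadjusted two-sided p of 0.01, as in the study, and a Benjamini-Hochberg adjusted p of 0.05 over all clusters. Exact permutation tests used SciPy 1.17.1. Likeness was Pearson's r of residuals after group means and array SD. Members and lists were chosen with earlier results of these data known. Named genes were the members, the 3 genes most like each, up to 4 genes per list with the smallest p in DOXO versus sham mice and those past 0.01. A few others, such as Hamp, Bmp10, Sbk3, Nr2f1, Pam, Hand2 or Pln, were named after their values were seen. Wide and narrow arrays were divided at an SD of 1.1. Nothing says that mice of a group were housed or processed apart, so p-values measure the spread between these arrays. The number of arrays per group, 4 to 6, limits the precision. The fit was tested on simulated data. Alternatives were another scaling, filters, variance models, the array SD, wide or narrow arrays, a replicate block and each mouse left out. RefSeq promoters (GRCm38.p6) were matched by symbol for 4 of the 5 members, all except Sln. The listed windows need not belong to the transcripts measured.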

Additional observations from a re-analysis of the deposited data

Results flagged for a closer look

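Over the 5 members and the isoform balance in 4 groups each, 24 sets of values in all, 3 held a mouse far from the rest of its group by Dixon's gap ratio, which chance passes in about 1 in 20 sets. Myl3 in sham mouse 4 had a log2 signal of 11.22 against 13.11 to 13.40 in the other sham mice, and its array is the narrow one of that group. The isoform balance of the same mouse was -4.22 against -6.81 to -6.37. Myl7 in FA-sham mouse 3 was 6.33 against 6.78 to 6.84 in the other FA-sham mice, and Myl4 was lowest of the group in that mouse too, at 7.06. No interaction passed the threshold for a member.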

How the results depend on the processing

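Log2 differences are given in this paragraph unless counts are named. In FA-sham versus sham mice the Myl7 call, the 1 member past the unadjusted threshold, was lost with quantile normalization (0.40), median centring (0.43), the array SD as a covariate (0.38), wide and narrow arrays as a block (0.46), wide arrays alone (0.89, where the single FA-sham array is assumed to vary like the others), narrow arrays alone (0.22) and the compared groups alone (0.66), each of which left 0 members past it. The filter on low signals dropped Myl7 and Sln and also left 0. In DOXO versus sham mice the sign turned for Myl2 with the wide and narrow block (0.093) and on wide arrays alone (0.058), and for Sln on narrow arrays alone (-0.0025). In FA-DOXO versus FA-sham mice it turned for Myl2 with the array SD as a covariate (-0.043), and on narrow arrays alone for Myl4 (0.11), Myl7 (0.065) and Sln (0.0057). It also turned for Myl4 in FA-DOXO versus DOXO mice on wide arrays alone (-0.44), and in the interaction on narrow arrays alone for Myl7 (0.0036) and Sln (0.0082). None of the turned values passed the threshold. The isoform balance of FA-sham versus sham mice fell to 0.90 with the array SD as a covariate. Leaving out each mouse in turn, differences in DOXO versus sham mice ran from -1.57 to -0.47 for Myl2, -1.61 to -0.78 for Myl3, 0.17 to 0.40 for Myl4, 0.20 to 0.47 for Myl7 and 0.24 to 0.63 for Sln, without a call. Differences in FA-sham versus sham mice ran from 0.53 to 0.80 for Myl7, 0.60 to 0.99 for Sln and -3.20 to -1.70 for Myl3, with 0 to 2 members past the threshold. Those in FA-DOXO versus FA-sham mice ran from -0.18 to 1.26 for Myl2 and -0.47 to 0.022 for Myl4, and those in FA-DOXO versus DOXO mice from -0.95 to 0.051 for Myl3 and -0.15 to 0.25 for Myl4. Same-numbered mice did not deviate together in every pair: an r over 0.1 was found in 0 of 4 sham and FA-sham pairs, 1 of 4 sham and DOXO pairs, 2 of 4 for sham with FA-DOXO and for FA-sham with DOXO, 3 of 4 FA-sham and FA-DOXO pairs and 4 of 6 DOXO and FA-DOXO pairs. The numbers were therefore not taken as pairs, and the replicate block kept the Myl7 call (0.66, unadjusted p = 0.00356), changed no other member's call and turned Sln in FA-DOXO versus FA-sham mice (0.0074). Over the alternatives other than single mice left out, the clusters past the unadjusted threshold numbered 95 to 1440 in DOXO versus sham, 12 to 386 in FA-DOXO versus DOXO, 11 to 590 in FA-DOXO versus FA-sham and 127 to 1765 in FA-sham versus sham mice, and 34 to 618 for the interaction. Without sham mouse 4 they numbered 2581 in DOXO versus sham and 9776 in FA-sham versus sham mice, and after adjustment 39 and 14815. Averaging the clusters of a gene gave the same values, since each member has 1. The compared groups alone give no interaction. The causes of these shifts were not tested. Signals of Myl7 and Sln near the array median limit what can be read from them.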
